A study of Mus musculus with 49 samples.

Results

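The genes described here are 50 G2 and mitosis genes, a set of cell cycle genes whose transcripts accumulate as a cell finishes copying its DNA and divides. They were taken by symbol from a table of expression values, and all 50 stood in it, on 1 row each, among 13093 genes. The table holds 49 individual cells of the mouse metanephric mesenchyme, the tissue around the ureteric bud that gives rise to nephrons and kidney stroma. The cells came from kidneys at 11.5 dpc (Theiler stage 19) of mice of a mixed background carrying Tg(Crym-EGFP)82Gsat, a reporter driven by Crym regulatory sequence, with both sexes labelled. Cells around the ureteric bud and some past the edge of the fluorescent domain were taken and caught singly on a microfluidic chip (Fluidigm C1). All cells therefore share 1 genotype, age and tissue, and no cell was treated.

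No label names the embryo or litter of a cell, so all 49 were treated as a single sample, with no replicates and no p-values. Each percentage of high cells (defined below) that is given with its count carries its exact 95% Clopper-Pearson interval, written as the interval. This interval covers counting error only. Values are RPKM, which correct reads for gene length and for the number of mapped reads per cell. A gene counts as found in a cell at 1 RPKM or more.

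Entry into mitosis is driven by Cdk1, a kinase that needs a bound cyclin. The B-type cyclins are among its partners. Transcription of the cyclins and of most other mitotic genes is held back in resting and early-cycle cells by the DREAM complex and is turned on in G2 by the MuvB complex with B-Myb and FoxM1, with NF-Y bound close by. Exit from mitosis follows when the anaphase-promoting complex marks the B-type cyclins for destruction. In the kidney rudiment both nephron progenitors, which depend on Six2, and stromal progenitors, which express Foxd1, divide while the organ forms.

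Because the members moved together across cells, their promoters are shown first. A RefSeq table of promoters in build GRCm38.p6, which is not the build of the expression table, held 48 promoters of 44 members, each running from 250 bases before to 50 after the gene's start. Both strands were searched for TTTGAA, the letters of the cell cycle genes homology region that MuvB complexes recognise, and for CCAAT, the letters that NF-Y recognises. The 4 stretches below are the 200 bases before the start, read 5′ to 3′ in the direction of the gene. They belong to Cdk1, the central kinase, and to Ube2c, Top2a and Cks2, which were among the 5 members that followed the rest of the set most closely; Cks2 is shown because it lacks TTTGAA. Capitals mark TTTGAA or its reverse complement TTCAAA, and CCAAT or its reverse complement ATTGG. In Ube2c a CCAAT and an ATTGG overlap.
Ube2c, chr2:164769729-164769928, plus strand: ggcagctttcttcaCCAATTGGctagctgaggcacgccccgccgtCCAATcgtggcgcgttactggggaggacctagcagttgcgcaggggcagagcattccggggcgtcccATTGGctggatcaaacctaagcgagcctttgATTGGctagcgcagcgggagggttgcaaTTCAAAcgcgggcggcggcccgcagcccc
Cdk1, chr10:69352913-69353112, minus strand: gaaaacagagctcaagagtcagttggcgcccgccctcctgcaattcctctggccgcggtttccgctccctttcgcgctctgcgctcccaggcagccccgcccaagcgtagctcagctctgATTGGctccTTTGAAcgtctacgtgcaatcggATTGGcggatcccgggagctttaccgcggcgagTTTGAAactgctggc
Top2a, chr11:99024190-99024389, minus strand: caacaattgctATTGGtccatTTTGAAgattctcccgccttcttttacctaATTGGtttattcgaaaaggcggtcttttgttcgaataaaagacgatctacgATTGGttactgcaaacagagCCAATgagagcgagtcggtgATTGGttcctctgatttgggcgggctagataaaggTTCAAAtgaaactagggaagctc
Cks2, chr13:51645032-51645231, plus strand: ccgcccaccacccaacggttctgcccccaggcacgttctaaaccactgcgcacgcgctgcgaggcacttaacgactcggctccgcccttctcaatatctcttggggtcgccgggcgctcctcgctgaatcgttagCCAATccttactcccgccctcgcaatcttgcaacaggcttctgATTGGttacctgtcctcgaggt

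Within these stretches Ube2c had 1 TTTGAA match and 5 CCAAT matches, Cdk1 had 2 and 2, Top2a had 2 and 5, and Cks2 had 0 and 2. The TTTGAA match nearest the start began 29 bases before it in Ube2c, 15 bases before it in Cdk1 and 23 bases before it in Top2a. Over the whole window, TTTGAA was in 34 of 48 member promoters (70.8%) and in 17.9% of all 32851 promoters of the table. CCAAT was in 79.2% of member promoters and in 37.4% of all promoters. Both stood together in 58.3% of member promoters and in 6.95% of all. In the narrower window from 100 bases before to 50 after the start, the share with both was 47.9% for members and 1.93% for all promoters. The letters TTTGGCGC or TTTCGCGC, a strict form of the E2F motif, were in 2 member promoters, those of Cdk1 and Ncapd2 (4.17%), and in 0.813% of all. Among the 11668 promoters of genes in the expression table, TTTGAA was in 11.9%, CCAAT in 37.9%, both in 4.84% and the E2F letters in 1.54%. The median Spearman rho with the rest of the set was 0.732 in the 27 genes with both in 1 promoter and 0.733 in the other 17. Birc5, Nuf2, Nusap1 and Tacc3, which had neither in this window, had a median of 0.763. A match of letters is a description and shows no binding, and these windows leave out more distant sequence.

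Cells differed widely in how much of the set they held. The number of members found per cell ran from 6 in cell 44 to 50 in cells 21, 37 and 39, with a median of 29. At the stricter level of 10 RPKM it ran from 4 to 49, with a median of 19. Summed over the set, the members made up from 0.0778% of a cell's RPKM in cell 44 to 3.59% in cell 18, with a median of 0.497%. By members found, 19 cells had 20 or fewer, 8 had 22 to 34, 10 had 36 to 45 and 12 had 47 to 50. At 10 RPKM no cell lay between 19 and 24 members.

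Members were found in more cells than most genes of the table. The median member was found in 28 cells and the median gene of the table in 16. In all, 33 of the 50 members were found in 25 or more cells, against 34.8% of all genes. At 10 RPKM that count of members was 19. The widest were Hmgb2 in 49 cells, Tmpo in 48 and Ckap5 in 47, and the rarest were Plk1 in 16, Gtse1 in 13 and Nek2 in 8.

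**Figure D1:**
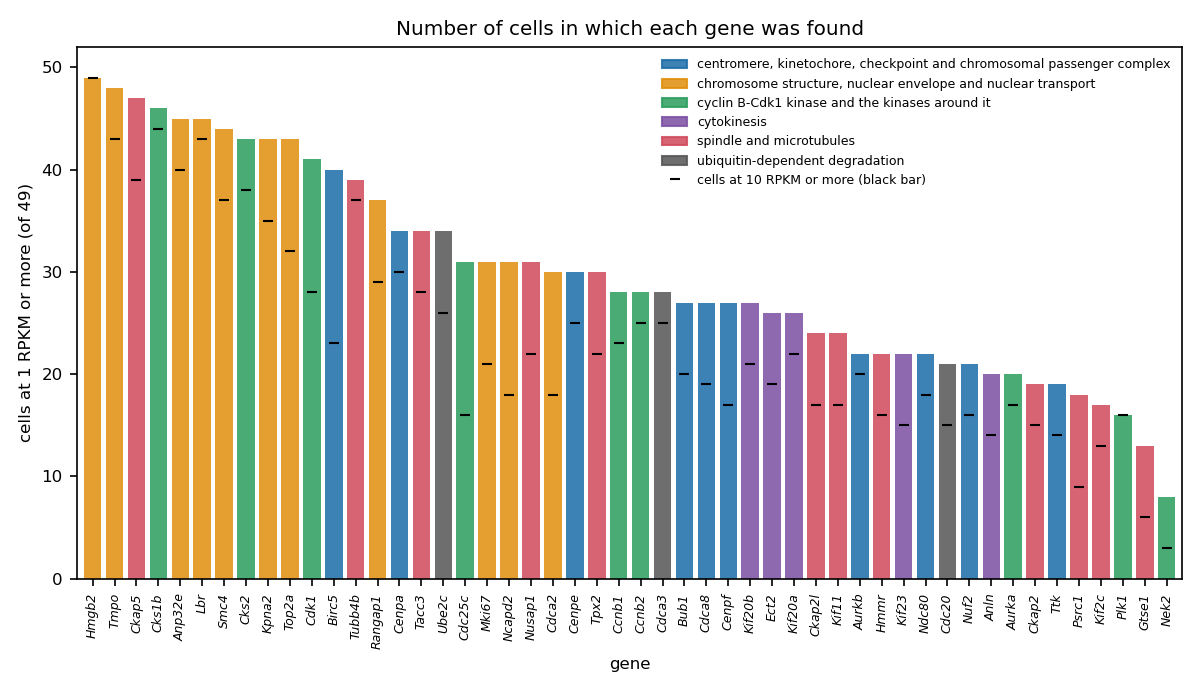
Cells in which each of the 50 genes was found at 1 RPKM or more (bars, coloured by role; 49 cells in all) and at 10 RPKM or more (black marks). Bars fall from Hmgb2 in 49 cells to Nek2 in 8, and genes of chromosome structure, the nuclear envelope and nuclear transport fill most of the left end.

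The order of detection was read across bands of cells with few to many members. In the 19 cells with 20 or fewer members, Hmgb2 was found in 19, Tmpo and Ckap5 in 18, Cks1b in 17, Top2a in 14 and Cdk1 in 12. Those same cells held Aurkb, Cdc20, Cdca8, Ckap2l, Gtse1, Hmmr, Kif11, Ndc80, Nek2, Plk1 and Ttk in 0 of 19. These bands were cut on the members themselves, so that rarer members are scarce in the lowest band is partly set by the cut. Traces below 1 RPKM were present in them, up to 0.934 for Ckap2l and 0.753 for Kif11. Aurkb, Cdc20, Cdca8 and Ttk appeared in 3 to 5 of the 8 cells with 22 to 34 members. Plk1, Gtse1 and Nek2 were still in 0 of those 8, and were found in 4, 4 and 2 of the 10 cells with 36 to 45. In the 12 cells with 47 to 50 members Plk1 was in 12, Gtse1 in 9 and Nek2 in 6. This order is one of cells at a single moment and holds no time.

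**Figure D2:**
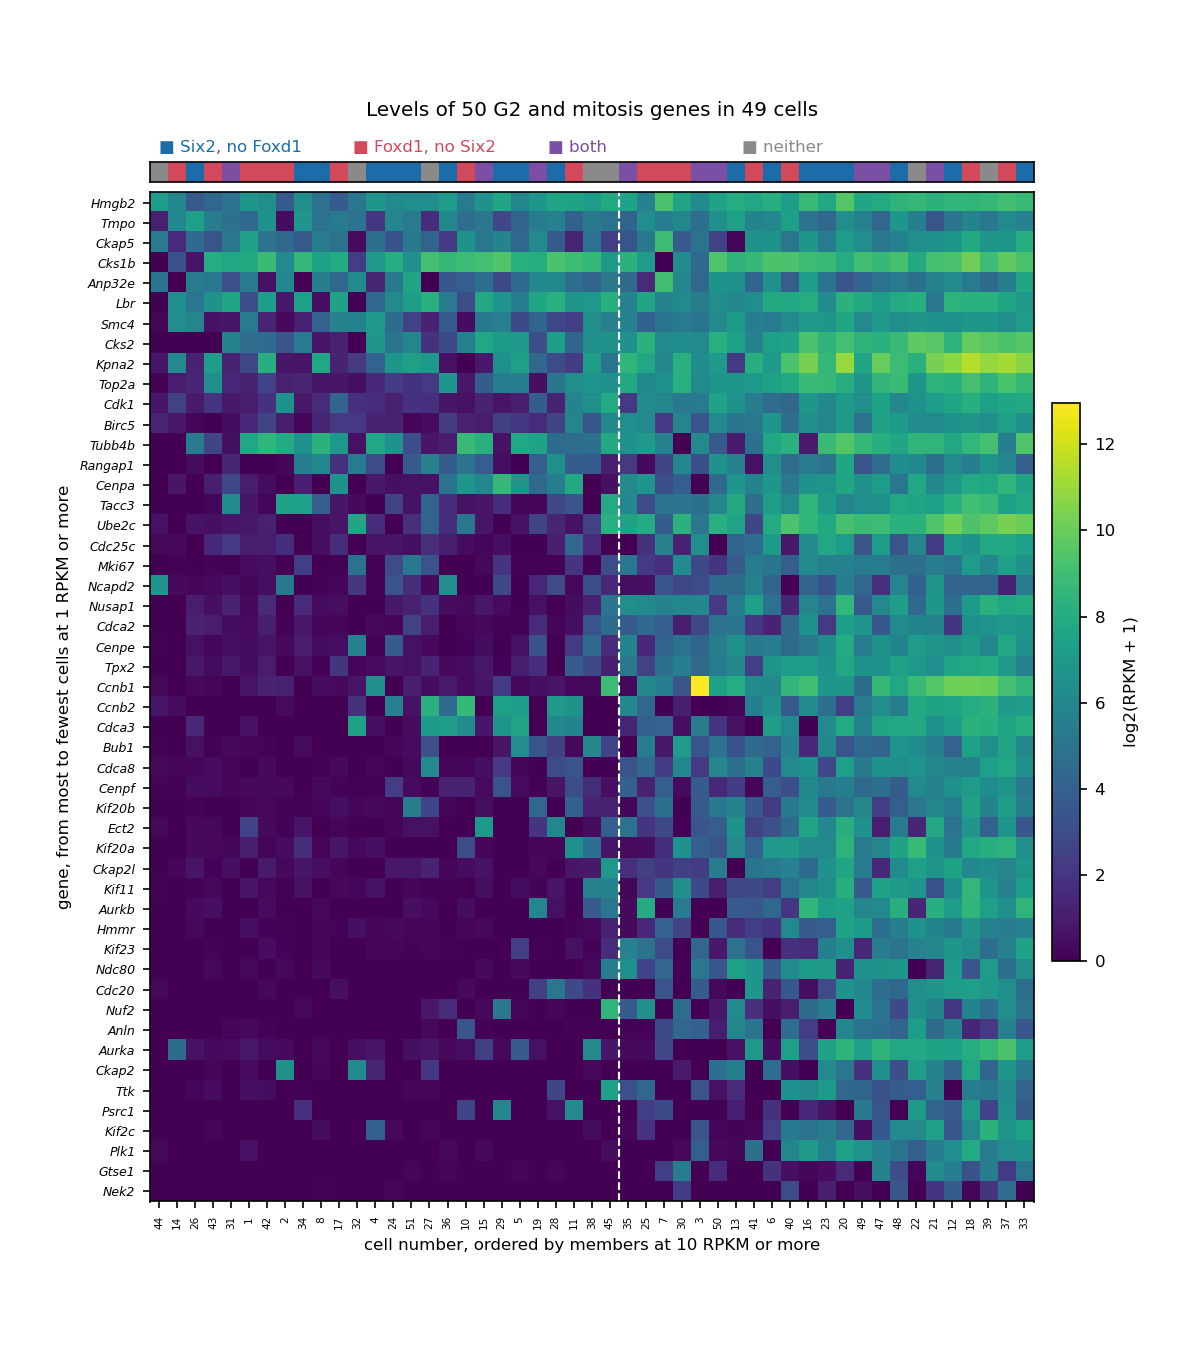
Level of each of the 50 genes, as log2(RPKM + 1), in each of 49 cells; rows run from the most to the least widely found gene, columns from 4 to 49 members at 10 RPKM, and the strip gives the Six2 and Foxd1 class of each cell. The dashed line separates the 26 cells under 25 members from the 23 at or above it, and the lower rows are dark to the left of it.

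A cell was called high when 25 or more of the 50 members reached 10 RPKM. By this rule 23 of 49 cells were high (46.9%, interval 32.5 to 61.7%). The class is a range and not a cell type: 7 cells held 20 to 30 members, 6 of them high. Just inside it were cells 25 and 35 at 25 members, and just outside it was cell 45 at 24. Since the members themselves set this class, their levels in high and other cells are given below as a description only.

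The total number of genes found also moved with this class, with overlapping ranges. High cells had a median of 5704 genes at 1 RPKM or more (4832 to 6510), and the other 26 cells had 4624 (3610 to 6171). Relative depth, estimated from the spacing of low values, had a median of 0.9997 times that of the median cell in high cells and 1.03 times in the others. The 2 shallow libraries, cell 3 at 0.0346 and cell 7 at 0.0462, were both high, and all others lay between 0.693 and 1.52. Without them 21 of 47 cells were high (44.7%, interval 30.2 to 59.9%). Wt1, a transcription factor of the mesenchyme, was found in 47 cells, Sall1 in 44 and Crym in 48. The 11 ureteric bud markers were found in 1 to 10 cells each, Ret, Cdh1 and Wnt9b in 1, Calb1 in 4 and Gata3 in 10. Their summed level ran from 0 to 817 RPKM in high cells and from 0 to 163 in the others. The 8 endothelial markers in the table were found in 1 to 6 cells each, Cdh5, Kdr and Pecam1 in 1, Emcn in 4 and Egfl7 in 6. Their sum ran from 0 to 39.9 RPKM in high cells and from 0 to 1125 in the others. Cell 25, which was high, held 10 of 11 ureteric bud markers, and cell 27, which was not, held all 8 endothelial markers. The part that these cells, the number of genes found and cell size play in the counts was not tested beyond the values given.

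Cdk1 and the kinases around it spanned the whole order of detection, from 46 cells for Cks1b to 8 for Nek2. Cdk1 itself was found in 41 cells, with a lowest value of 0.501 RPKM, a median of 24.0 and a highest of 281 in cell 18. No cell was at 0 for Cdk1, and 28 cells had it at 10 RPKM or more. Ccnb1, a B-type cyclin (mm9, chr13:101548694-101556441 as the table gives it), was found in 28 cells, from 0 to 8013 RPKM with a median of 3.73. The 8013 RPKM belong to the shallow cell 3, and the next value was 1191 in cell 18. Ccnb1 was found in 22 of 23 high cells and in 6 of the other 26.

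Ccnb2, the other B-type cyclin (chr9:70255496-70269361), was also found in 28 cells but not in the same ones. Both cyclins were found in 19 cells, Ccnb1 alone in 9, Ccnb2 alone in 9 and neither in 12. Ccnb2 ran from 0 to 402 RPKM with a median of 11.8, and its highest value was in cell 10, which had 12 members at 10 RPKM. The non-high cells 27, 29, 5 and 28 had 295, 167, 148 and 125 RPKM of it. In those 5 cells Ccnb1 stood between 0.227 and 3.73 RPKM and Cdk1 between 0.501 and 2.52. Of the 9 cells with Ccnb2 alone, 8 were not high. In all, 34 cells held Cdk1 with Ccnb1 or Ccnb2, 7 held Cdk1 without them, and 3 held a B-type cyclin without Cdk1. Other cyclins were not counted here.

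The Cks proteins are small subunits that bind Cdk1 and bring it to its substrates. Cks1b was abundant in most cells, at a median of 391 RPKM and a highest of 1142 in cell 18, with 44 cells at 10 RPKM or more and 2 cells at 0. Near-identical copies of Cks1b elsewhere in the genome make its value uncertain. Cks2 was found in 43 cells, from 0 to 925 RPKM with a median of 91.9. Its median was 337 RPKM in high cells and 23.1 in the others, and its ranges overlapped between 54.8 and 211 RPKM.

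Plk1, the kinase that acts on centrosomes, kinetochores and the cleavage site (chr7:129302951-129313389), was close to on or off. It stood at 14.2 to 243 RPKM in 16 cells and at 0.530 RPKM or less in the other 33. All 16 were high cells, and 7 high cells lacked it. Its row overlaps that of Dctn5, and without strand their shared reads cannot be told apart. Nek2, a kinase of centrosome separation, reached 24.1 RPKM in cell 37 and was found in 8 cells, all high. Aurka, the spindle pole kinase, was found in 20 cells (16 high), from 0 to 661 RPKM with a median of 0.557. Cdc25c, the phosphatase that removes the inhibitory phosphates of Cdk1, was found in 31 cells at a median of 2.08 RPKM. It reached 10 RPKM in 16 cells, with a highest value of 225 in cell 37.

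Among the 3 members of ubiquitin-dependent degradation, Ube2c, the ubiquitin-conjugating enzyme of the anaphase-promoting complex, had the widest swing. It ran from 0 to 1277 RPKM with a median of 16.8, and was found in all 23 high cells (median 321 RPKM) and in 11 of the other 26. Cdc20, the activator that opens anaphase, was found in 21 cells, 17 of them high, from 0 to 158 RPKM with a median of 0.218. Its row overlaps Elovl1. Of the 21 cells with Cdc20, 20 also held Ube2c. Cdca3, a trigger of mitotic entry through destruction of Wee1, was found in 28 cells, 9 of them not high, and reached 321 RPKM.

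The 10 members of the centromere, kinetochore, checkpoint and chromosomal passenger complex were found in 19 to 40 cells. Birc5, the survivin subunit of the passenger complex, was found in 40 cells, from 0 to 179 RPKM with a median of 9.18. Aurkb, the kinase of that complex, was found in 22 cells, from 0 to 370.5 RPKM with a median of 0.438, and every one of those 22 cells also held Birc5. Cdca8, the borealin subunit, was found in 27 cells. All 3 subunits were found in 19 cells and at least 1 of them in 41.

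Cenpa, the histone variant that marks centromeres, was found in 34 cells, from 0 to 395 RPKM with a median of 34.0. Its highest value was in cell 29, which was not high. Cenpf, a large kinetochore and nuclear matrix protein, ran from 0 to 145 RPKM with a median of 1.42; it was found in 27 cells and at 10 RPKM or more in 17. Cenpe, the kinetochore motor, was found in 30 cells and reached 253 RPKM. Bub1 and Ttk, kinases of the spindle checkpoint, were found in 27 and 19 cells, and 18 cells held both. Bub1 ran from 0 to 191 RPKM with a median of 5.36. Ndc80 and Nuf2, 2 subunits of the complex that ties kinetochores to microtubules, were found in 22 and 21 cells, with both in 17 and at least 1 in 26. Nuf2 and Ttk each peaked in cell 45, at 357 and 157 RPKM, the cell that missed the limit by 1 member. The row of Ndc80 overlaps that of Alk.

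The 12 spindle and microtubule members ranged from Ckap5 in 47 cells to Gtse1 in 13. Tpx2, which activates Aurka on spindle microtubules, was found in all 23 high cells and in 7 others. It ran from 0 to 252 RPKM with a median of 4.22, and its median was 93.3 RPKM in high cells and 0.522 in the others. Nusap1, a microtubule bundling protein, was found in 31 cells, from 0 to 378 RPKM with a median of 1.89, and its row overlaps Oip5. Kif11, the motor that pushes spindle poles apart, was found in 24 cells, 22 of them high. Tacc3, which stabilises kinetochore fibres, was found in 34 cells and in every high cell.

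Kif2c, a motor that depolymerises microtubules at centromeres, was found in 17 cells, Hmmr, a spindle assembly factor, in 22 and Ckap2l, a spindle protein, in 24. Hmmr was above 1 RPKM in only 1 cell that was not high, at 1.21 RPKM. Ckap2, another spindle protein, was found in 19 cells, and Psrc1, a regulator of microtubule dynamics, in 18. Gtse1, a microtubule protein of G2, was found in 13 cells, all high, and reached 74.5 RPKM in cell 21. Tubb4b, a beta-tubulin, and Ckap5, a microtubule polymerase, are also used outside mitosis and were found in 39 and 47 cells. Tubb4b stood at 65.3 RPKM in the median non-high cell and at 217 in the median high cell. The row of Tubb4b overlaps Fam166a and that of Ckap5 overlaps Snord67, and Tubb4b also resembles other tubulin genes.

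The 5 cytokinesis members were found in 20 to 27 cells. Kif20a, the motor that carries the passenger complex to the midzone, ran from 0 to 430.0 RPKM with a median of 2.20 and was found in 21 of 23 high cells. Its row overlaps Brd8 and Cdc23. Kif23, the motor subunit of centralspindlin, ran from 0 to 183 RPKM with a median of 0.334 and was found in 20 high cells and 2 others. Ect2, the exchange factor that switches on the contractile ring, was found in 26 cells, and 20 cells held both Ect2 and Kif23. Anln, the anillin scaffold of that ring, was found in 20 cells, 19 of them high, and Kif20b, a motor of late cytokinesis, in 27.

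The 11 members of chromosome structure, the nuclear envelope and nuclear transport were the most widespread, in 30 to 49 cells. Hmgb2, a chromatin protein, was at 10 RPKM or more in all 49 cells, from 11.5 RPKM to 723 in cell 20. Its median was 278 RPKM in high cells and 84.8 in the others. Near-identical copies make its value uncertain, and the same holds for Kpna2 and for Anp32e, a chaperone of histone H2A.Z found in 45 cells. Top2a, which untangles replicated chromosomes, was found in 43 cells, from 0.0891 to 604 RPKM with a median of 88.2. The highest value of Top2a in a non-high cell was 113 RPKM and its lowest in a high cell was 65.7. The ranges overlapped between these values, where several cells of each kind lay. Mki67, the coat protein of mitotic chromosomes used as a proliferation marker, ran from 0 to 158 RPKM with a median of 6.23. It was found in every high cell and in 8 of the other 26.

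Kpna2, an importin that carries proteins into the nucleus and shields spindle factors, had the highest value of any member outside the shallow cells, 2980.4 RPKM in cell 18. It was found in 43 cells at a median of 129 RPKM. Tmpo, a lamina-associated protein, ran from 0.341 to 168 RPKM with a median of 41.5. Its median was 53.6 RPKM in high cells and 32.2 in the others. Smc4 and Ncapd2, subunits of condensin, were found in 44 and 31 cells, and the row of Smc4 overlaps Mir15b and Mir16-2. Lbr, the lamin B receptor, was found in 45 cells, Rangap1, which sets the Ran gradient, in 37 and Cdca2, which brings a phosphatase to chromatin at mitotic exit, in 30. Ncapd2 had its highest value, 108 RPKM, in cell 44, the cell with the fewest members.

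Across the 49 cells the members varied together. Over 1225 pairs the median Spearman rho was 0.552, from -0.165 to 0.871, with 1219 pairs above 0. At least 0.5 was reached by 715 pairs (58.4%), and over pairs of 2000 genes sampled from the table the median was 0.0272 and the share 0.0614%. These cells share 1 sequencing run and lane and 1 chemistry and differ in depth, and the values are a description with n = 49. All 50 members were also positively related to the number of genes found in a cell, with a median rho of 0.442. The members' mean log2(RPKM + 1) followed that number at a rho of 0.632, and the count of members at 10 RPKM followed it at 0.654. With the number of genes found held constant the median over member pairs was 0.454.

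Against the mean of the other 49 members, 43 of 50 members had a rho of 0.5 or more, as had 1.18% of the 10196 other genes found in 5 or more cells against the mean of all 50. The median was 0.744 for members and 0.0860 for the other genes. Highest were Tpx2 at 0.887, Top2a at 0.884, Cks2 at 0.879, Birc5 at 0.872 and Ube2c at 0.870. The 7 members below 0.5 were Tmpo at 0.187, Anp32e at 0.218, Tubb4b at 0.423, Ncapd2 at 0.481, Ckap5 and Nek2 at 0.487 and Lbr at 0.497. Of these, Nek2 was found in 8 cells, so few that most ranks are tied, while Tmpo, Anp32e, Ckap5 and Lbr were found in 45 or more. By role, 10 of 10 members of the centromere group, 5 of 5 of cytokinesis and 3 of 3 of degradation reached 0.5. The count was 8 of 9 for Cdk1 and its kinases, 10 of 12 for the spindle and 7 of 11 for chromosome structure, the envelope and transport.

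**Figure D3:**
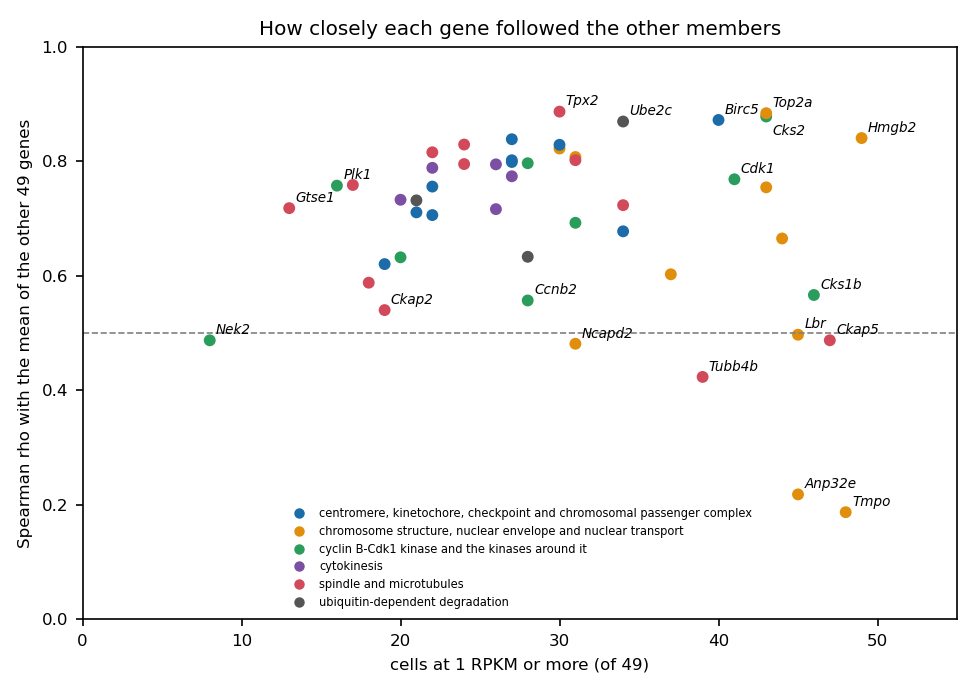
Spearman rho of each gene with the mean of the other 49 (vertical axis) against the number of cells in which it was found (horizontal axis), coloured by role. The dashed line marks 0.5; 43 genes lie above it, and Tmpo and Anp32e, found in 48 and 45 cells, lie far below.

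The closest pairs joined proteins of the spindle and chromosomes: Cenpe with Tpx2 at a rho of 0.871, Nusap1 with Cdca2 at 0.863 and Cdca2 with Tpx2 at 0.853. The lowest were Tmpo with Ccnb2 at -0.165, Anp32e with Lbr at -0.0755 and Tmpo with Ckap5 at -0.0322. Pairs of members with related roles ranged widely. Cdk1 followed Ccnb1 at 0.745 but Ccnb2 at 0.227, and the cyclins followed each other at 0.318. Top2a and Mki67 were at 0.797, Birc5 and Cdca8 at 0.722, Tpx2 and Aurka at 0.616, Cks1b and Cks2 at 0.566, and Ndc80 and Nuf2 at 0.561. The condensin subunits Smc4 and Ncapd2 were at 0.334. Cut into 3 sub-groups by average linkage on 1 minus rho, the set gave 47 genes with a median rho of 0.585, the pair Ncapd2 and Anp32e at 0.379, and Tmpo alone. The large sub-group held members of all 6 roles.

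Among genes of the same pathway outside the set, 72 other mitosis genes were listed and 68 were in the table. A rho of 0.5 or more with the members' mean was reached by 49 of them, with a median of 0.646. Of all genes outside the set found in 5 or more cells, 1.18% reached it, with a median of 0.0860. The gene lists were chosen with earlier results of these data known, which may raise such counts. Prc1, which bundles the midzone, stood at 0.817, Ncapg, a condensin subunit, at 0.811, Racgap1, the partner of Kif23, at 0.803, and Ccna2, cyclin A2, at 0.713. Of 17 transcription regulators of these genes, 1 reached 0.5, Foxm1 at 0.642, found in 21 cells. Mybl2, which encodes B-Myb, was found in 11 cells and stood at 0.335. The NF-Y subunits Nfya, Nfyb and Nfyc stood at 0.185, 0.0605 and 0.250.

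Of 45 genes of the G1/S transition, 3 reached 0.5, with a median of 0.177. Over all genes outside the set found in 5 or more cells the share was 1.18% and the median 0.0860. The 3 were Rrm2 at 0.611, Tyms at 0.556 and Fen1 at 0.524, which act in nucleotide supply and DNA replication. The replicative helicase genes lay on both sides of 0. Mcm2, Mcm4 and Mcm6 were at -0.141, -0.0826 and -0.0526, and Mcm7, Mcm5 and Mcm3 at 0.018, 0.0253 and 0.151. The mean log2(RPKM + 1) of the G1/S genes followed that of the members at a rho of 0.383 over all cells (number of genes found not held constant). Within the 26 non-high cells it was 0.472, and within the 23 high cells it was -0.280. In the 15 cells with 25 to 44 members at 10 RPKM the median G1/S mean was 4.36, in the 8 cells with 45 or more it was 3.17, and in the others it was 3.23. The ranges of these bands overlapped, from 2.57 to 6.15, from 2.45 to 5.65 and from 1.45 to 5.46. The 4 cells with the highest members' means, 18, 37, 39 and 33, had G1/S means of 2.66, 2.45, 2.66 and 3.82. The G1/S mean also differed by the Six2 and Foxd1 class of the cell. Its median was 4.10 with Six2 alone, 2.69 with Foxd1 alone, 4.19 with both and 2.66 with neither. Cells 18 and 37 had Foxd1 alone, cell 39 had neither and cell 33 had Six2 alone. The part that class plays in the values of the bands was not tested.

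**Figure D4:**
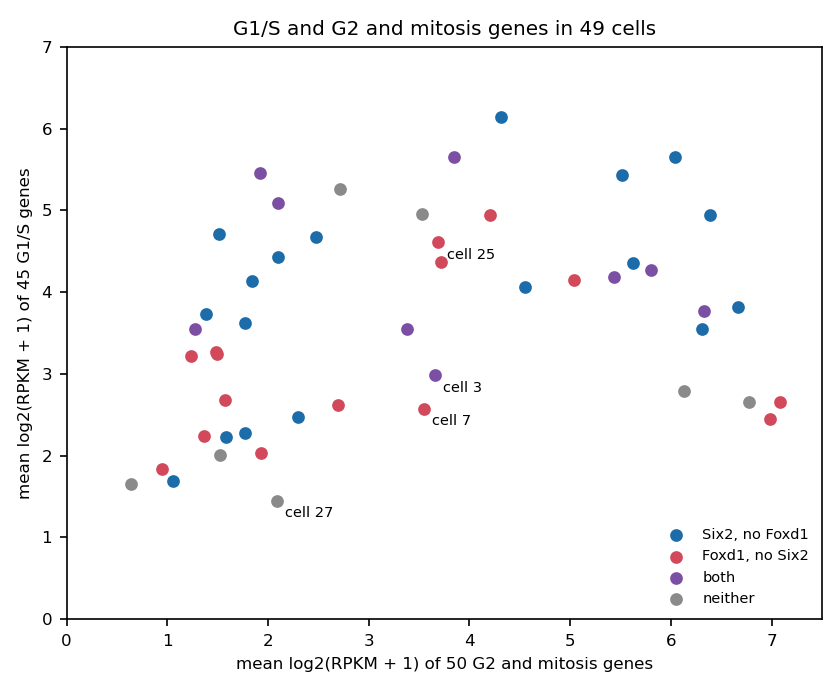
Mean log2(RPKM + 1) of 45 G1/S genes (vertical axis) against that of the 50 G2 and mitosis genes (horizontal axis) in 49 cells, coloured by Six2 and Foxd1 class, with the shallow cells 3 and 7 and the cells 25 and 27 named. At the right end G1/S means spread from 2.45 in cell 37 to 5.65 in cell 48.

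Cells were next divided by Six2 and Foxd1, which the member rule did not use. Six2 without Foxd1 was found in 18 cells, taken as the progenitor class, Foxd1 without Six2 in 15, taken as the stromal class, both in 9 and neither in 7. These classes rest on 1 gene each, and a transcript missed in a cell moves it between them. Cells 22 and 39, of neither class, had Foxd1 at 0.422 and 0.390 RPKM. They held 11 of 14 stromal markers each, and 4 and 3 of 12 nephron progenitor markers. Cells 32 and 44, also of neither, held 7 progenitor markers each, and 4 and 3 stromal ones. Cell 41 of the stromal class held 12 stromal and 7 progenitor markers, and cell 48 of the progenitor class 10 and 11. In the progenitor class 8 of 18 cells were high (44.4%, interval 21.5 to 69.2%). In the stromal class 7 of 15 were high (46.7%, interval 21.3 to 73.4%). These intervals overlap over most of their length, and a difference between the classes was not detectable with this number of cells. Of cells with both genes 6 of 9 were high (66.7%, interval 29.9 to 92.5%), and of cells with neither 2 of 7 (28.6%, interval 3.67 to 71.0%). Genes found per cell had a median of 4246 with neither, 4960.5 in the progenitor class, 5232 in the stromal class and 5670 with both. The shares stood in the same order, and the part that the number of genes found plays in them was not tested.

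The number of members at 10 RPKM had a median of 15 in the progenitor class (7 to 49), 19 in the stromal class (6 to 48), 29 in cells with both genes (7 to 45) and 19 in cells with neither (4 to 47). Every class therefore held cells at both ends. The high progenitor cells held 32 to 49 members with a median of 42, and the high stromal cells held 25 to 48 with a median of 33. With 30 members needed in place of 25, the stromal share fell to 4 of 15 (26.7%, interval 7.79 to 55.1%) and the progenitor share stayed at 8 of 18. The stromal class includes the shallow cell 7 and cell 25 with its ureteric bud markers. Without cells 3 and 7, and likewise without cells 25 and 27, its share was 6 of 14 (42.9%, interval 17.7 to 71.1%). The members' mean log2(RPKM + 1) was 3.51 ± 2.09 (SD over 18 cells) in the progenitor class and 3.13 ± 2.02 (SD over 15 cells) in the stromal class, a difference smaller than the spread within either.

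**Figure D5:**
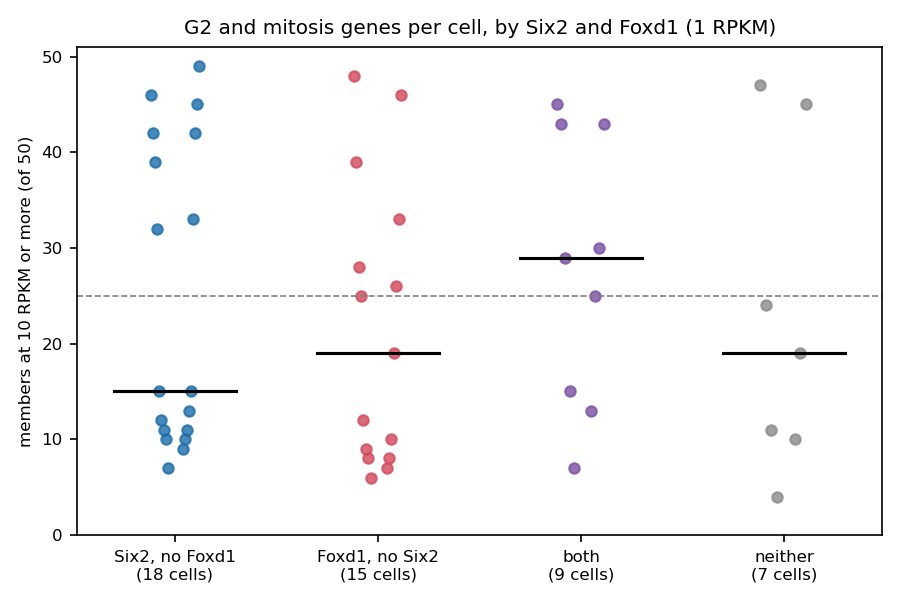
Members at 10 RPKM or more in each of 49 cells (points), by Six2 and Foxd1 at 1 RPKM, with the median of each class (black bar) and the limit of 25 members (dashed line). All 4 classes hold cells above and below the limit; progenitor cells leave a gap from 15 to 32 members, and stromal cells spread across it.

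By other marker genes the shares of high cells ran from 42.1 to 66.7%, and no difference between them was tested. Except for Crym, each group below is the cells in which the gene was found. High cells also had more genes found, a median of 5704 against 4624, and the part this plays in these shares was not tested. Cells with Crym at 10 RPKM or more were high in 15 of 30 (50%, interval 31.3 to 68.7%) and cells below it in 8 of 19 (42.1%, interval 20.3 to 66.5%). Cells with Cited1, a marker of uncommitted nephron progenitors, were high in 8 of 12 (66.7%, interval 34.9 to 90.1%). With Gdnf, the growth factor that draws out the ureteric bud, the count was 8 of 16 (50%, interval 24.7 to 75.3%). With Eya1, a transcription cofactor of nephron progenitors, it was 15 of 32 (46.9%, interval 29.1 to 65.3%). Cells with Pdgfra, a receptor of mesenchymal cells, were high in 15 of 26 (57.7%, interval 36.9 to 76.6%). With Col1a1 the count was 18 of 31 (58.1%, interval 39.1 to 75.5%). The 12 nephron progenitor genes and the 13 stromal genes found in 5 or more cells included 0 that followed the members at 0.5 or more. Of all other genes found in 5 or more cells 1.18% did, so 0 of so few genes was near that share. The median rho was 0.0995 for the progenitor genes, 0.0710 for the stromal genes and 0.0860 for all other genes.

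Gene by gene, few members differed between the progenitor and stromal classes. In the progenitor class 6 members had a mean log2(RPKM + 1) higher by 1 or more, against 8.75% of all genes, and 0 were lower by 1 or more, against 7.78%. Among genes found in 10 or more cells the count of higher members was 6 of 49, against 13.0% of such genes, so the members' share was near the background. The 6 were Rangap1 by 1.78, Ncapd2 by 1.39, Cks2 by 1.33, Cdca3 by 1.28, Smc4 by 1.10 and Ect2 by 1.01. For Rangap1 the means were 4.22 ± 2.48 (SD over 18 cells) and 2.44 ± 2.48 (SD over 15 cells), and it was found in 14 of 18 progenitor and 8 of 15 stromal cells. Over the set 39 differences were above 0 and 11 below, with a median of 0.34, where the median over all genes was 0. The share of all genes above 0 is not given here. The median member was found in 28 cells and the median gene in 16, so the 2 medians do not compare like with like. The members varied together, at a median pair rho of 0.552, so these signs are not independent of each other. The lowest was Cdk1 at -0.92, found in 14 of 18 progenitor and 13 of 15 stromal cells. With 1 sample there is no replicate check of these differences.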

How the data were processed

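The data are 1 table of RNA-seq values for 49 cells captured on a Fluidigm C1 chip, amplified with SMARTer chemistry, made into libraries with Nextera XT and sequenced on a HiSeq2500, per the labels' protocols. This chemistry keeps no strand and no molecular identifiers. Per the file headers, the deposited values are RPKM. One further deposited column, the authors' count of cells above 3 RPKM, matched the values in all 13093 genes. The submitters' processing notes name TopHat 1.4.1, DESeq and mm9, without saying what each was used for. The read counter, the annotation and the base from which starts count were not given in the sources used here. All per-cell columns were used (0 unused).

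Columns were matched to cells by cell number. The column headers show 1 run and lane. The members and the gene lists were chosen with earlier results of these data known. No cell was filtered, and doublets were not called computationally: the submitters looked at each capture site under a microscope. Total reads per cell are unknown; relative depth came from the ratios of low values (below 8 RPKM), whose densest window of 2e-05 in the natural log held at least 63 genes. Member means used log2(RPKM + 1), a pseudocount of 1, which understates the change of low genes. Correlations are Spearman's, over all cells, and those with all genes needed a gene found in 5 or more cells. The text names all members, in detail those of a list. It also names the 3 found in most and in fewest cells, and the 3 highest and 3 lowest pairs. From outside the set come the 10 genes most and 5 least like it (found in 10 or more cells), and some genes of most lists. One gene that the rule names is not reported here. Values of single members in single cells were singled out after being seen. The steps for depth, correlation and class differences were tested on simulated data. Python 3.11.15, numpy 2.4.6, pandas 2.3.3, scipy 1.17.1 and matplotlib 3.10.9 were used. Alternatives changed the RPKM limit, the members needed, the pseudocount, the correlation, the cells kept and the marker that split the cells.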

Additional observations from a re-analysis of the deposited data

How the results depend on the processing

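At 10 RPKM in place of 1, members found in 25 or more cells fell from 33 to 19 and the median per cell from 29 to 19. With a pseudocount of 0.1, members higher in the progenitor class numbered 11 in place of 6 (16.5% of all genes). Members lower numbered 1 in place of 0, against 16.5% of all genes. Divided by Crym at 10 RPKM, 3 were higher (5.49% of all genes). Other settings moved the share of high cells between 36.7 and 49.0%, the progenitor share between 43.8 and 50%, the stromal share between 26.7 and 46.7%, the median rho between 0.454 and 0.565 and the members at a rho of 0.5 or more between 40 and 45. TTTGAA was in 60.4% of member promoters in the narrower window. No paired analysis was possible because the cells form 1 group. Reads per cell are unknown, so a value near 1 RPKM rests on an unknown number of reads, and in cells 3 and 7 on fewer than elsewhere. A gene at 0 in a cell may have been missed.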

Other observations

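Outside the set, the genes found in 10 or more cells whose levels most resembled the members' mean included 7 that stood in the list of other mitosis genes. That list was chosen with earlier results of these data known, which may raise this count. C330027C09Rik had the highest Spearman rho, 0.827 over 49 cells, and reached 177 RPKM, being found in 26 cells. It was followed by Prc1, Ncapg, Racgap1, Ccdc99 at 0.793, Cenpi at 0.786, Casc5 at 0.780, Pbk at 0.779, Cenpq at 0.777 and Arhgap19 at 0.774. Casc5 is a kinetochore scaffold and Pbk a mitotic kinase found in 37 cells, more widely than most members.

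Among the lowest stood Ftl1 at a rho of -0.517, Pdcd4 at -0.514, Rps6 at -0.508 and Mtap1b at -0.478. Ftl1 encodes ferritin light chain, Rps6 a ribosomal protein, and Pdcd4 an inhibitor of translation. Pdcd4 was found in all 49 cells, at a median of 66.0 RPKM in high cells and 152 in the others. Ribosomal protein and ferritin genes have many processed copies, which makes their values uncertain, and RPKM are relative, so a rise of some genes lowers others.

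Of 13 genes of cell cycle exit, 11 were found in 5 or more cells and 0 of them had a rho of 0.5 or more or of -0.5 or less. Of all genes outside the set found in 5 or more cells, 1.18% reached 0.5. Mtap1b, among the lowest genes named above, stood at -0.478, so few genes of that ranking reached -0.5. A count of 0 of 11 therefore does not set the exit genes apart. Their median rho was 0.118, against 0.0860 for all genes outside the set. Cdkn1c, which encodes the Cdk inhibitor p57, was found in all 49 cells at a median of 406 RPKM in high cells and 336 in the others, a rho of 0.0813. Cdkn1a, which encodes p21, was found in 1 cell. Ccng2, an atypical cyclin linked to cell cycle arrest, had the highest rho of the list, 0.433, with a median of 25.0 RPKM in high cells and 1.87 in the others.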
